A study of Mus musculus with 12 samples.

Results

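Livers that lack Atg7 in hepatocytes and carry the T352A form of p62 (Atg7-KO;p62T352A) were compared with control livers (cont.) by RNA sequencing, to describe what stays changed, overshoots or is newly changed when both alleles are altered. The comparison used 6 of the 9 mice with counts, chosen by genotype: 3 cont. mice (Atg7 flox/flox, without Cre) and 3 Atg7-KO;p62T352A mice (Atg7 flox/flox;Alb-Cre with p62 T352A on both alleles). The 3 Atg7-KO mice (Atg7 flox/flox;Alb-Cre with normal p62) entered the same fit as the reference for what Atg7 loss does with normal p62. The floxed Atg7 alleles were thus shared by all 9 mice. All mice were 3 months of age, and the liver RNA of each was sequenced as 1 library. The study describes the Alb-Cre deletion as specific to hepatocytes, and whether other liver cells lose Atg7 was not tested here. The p62 change, made by prime editing in embryonic stem cells of C57BL/6N origin, is present in every cell. The 3 mice with p62 T352A alone, among the 12 labelled mice, were not analysed here, so an effect of T352A without Atg7 loss and an effect of both alleles together cannot be told apart.

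ATG7 is an enzyme that autophagosome formation needs, and p62, encoded by Sqstm1, is a receptor that autophagy both uses and degrades. Without autophagy p62 gathers in droplets that can hold KEAP1, the adaptor that marks the transcription factor NRF2 for degradation, and NRF2 then switches on antioxidant and detoxifying enzymes. Thr352 lies in the short stretch of p62 that binds KEAP1. The allele is shown by the coding sequence around that residue, because the samples differ by it. In the Sqstm1-202 transcript of the GENCODE M21 annotation (mm10, minus strand, exon 7 of 8, within codons 337 to 367 of 442), the stretch chr11:50202469-50202561 reads as follows, 5′ to 3′, with the codon of Thr352 (ACA) in capitals and a serine codon, that of residue 351, just before it.

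Sqstm1 codons 337 to 367: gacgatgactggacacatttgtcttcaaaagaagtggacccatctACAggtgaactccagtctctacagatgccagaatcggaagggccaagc

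Levels are given as normalized CPM, a library's counts scaled to a common total after edgeR's TMM normalization. A gene was called when the adjusted p was below 0.05 and the fold above 1.5 in edgeR's quasi-likelihood test. Genes entered the test if expressed in any of the 3 genotypes, so one near 0 in cont. could be called higher but hardly lower. Total counts per library ran from 9671080 to 23285132. The Atg7 level was 46.4, 44.2 and 55.4 normalized CPM in the 3 cont. mice, 10.1, 9.57 and 12.0 in the Atg7-KO mice, and 29.7, 27.4 and 29.5 in the Atg7-KO;p62T352A mice. Every Atg7-KO;p62T352A mouse was below every cont. mouse and above every Atg7-KO mouse. Atg7 was called lower than in cont. (log2 fold change -0.75 ± 0.16 SE, adjusted p = 0.0206) and higher than in Atg7-KO (log2 fold change 1.45). Counts cover the whole gene, so reads from outside the deleted part and from cells without Cre are included in every group. Atg7-KO had the same floxed alleles and Cre, and why Atg7 stood higher in Atg7-KO;p62T352A was not tested. Sqstm1 stood at 505, 341 and 314 normalized CPM in cont., at 911, 871 and 960 in Atg7-KO and at 497, 626 and 511 in Atg7-KO;p62T352A, and the last group was not called against cont. (log2 fold change 0.49 ± 0.22, adjusted p = 0.177).

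Libraries differed in ways that the genotypes do not explain. Xist, transcribed from the inactive X chromosome, was at 0.401 to 1.35 normalized CPM in the mice numbered 1 of each genotype and at 373 to 2015 in those numbered 2 and 3. The summed level of 4 Y-linked genes (Ddx3y, Eif2s3y, Kdm5d and Uty) was 159, 58.0 and 13.1 normalized CPM in cont. mice 1, 2 and 3, so the cont. libraries numbered 2 and 3 held 36.5% and 8.23% of the Y-linked level of library 1 beside a high Xist level. In the Atg7-KO;p62T352A mice the same percentages were 11.5% and 3.98%, and in Atg7-KO 4.73% and 0.798%. The median SD of a gene between mice of 1 genotype was 0.385 on the log2 scale in cont., 0.237 in Atg7-KO;p62T352A and 0.112 in Atg7-KO. Unless another fit is named, p-values below come from the fit to all 9 mice, so the smaller spread of Atg7-KO entered them. Whether reads of another mouse are in these libraries was not tested.

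Of 13922 tested genes, 870 stood higher and 743 lower by this rule in Atg7-KO;p62T352A than in cont., 6.25% and 5.34% of all. In Atg7-KO against the same cont. mice, 3006 genes were called higher and 3074 lower, 21.6% and 22.1% of all, and of these 6080 genes 487 (8.01%) were called in the same direction in Atg7-KO;p62T352A, 230 (3.78%) in the opposite direction and 5363 (88.2%) in neither, which does not show that these returned to the cont. level. The 1613 called genes therefore fell into 487 that stayed changed as in Atg7-KO (330 higher, 157 lower), 230 that overshot cont. (136 higher, 94 lower) and 896 that were called in Atg7-KO;p62T352A but not in Atg7-KO (404 higher, 492 lower). Both comparisons share the cont. mice. The size of these classes rested strongly on which mice entered the fit: with the 6 mice of the comparison alone 50 genes were called (0.385% of the genes tested there), without cont. mouse 1 it was 3245, without cont. mouse 2 it was 852, without Atg7-KO;p62T352A mouse 3 it was 435, and without 1 of the Atg7-KO mice it was 750 to 781. Counts of gene lists under these fits, given below, are to be read beside the totals. Without cont. mouse 1, 1514 genes were called higher and 1731 lower over all. Without cont. mouse 2 it was 310 and 542, and without Atg7-KO;p62T352A mouse 3 it was 244 and 191. A core of 356 genes (2.56% of those tested) was called in the same direction in each of the 9 fits that left out 1 mouse. It held 121 of the genes that stayed changed, 48 of those that overshot and 187 of the newly called.

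**Figure D1:**
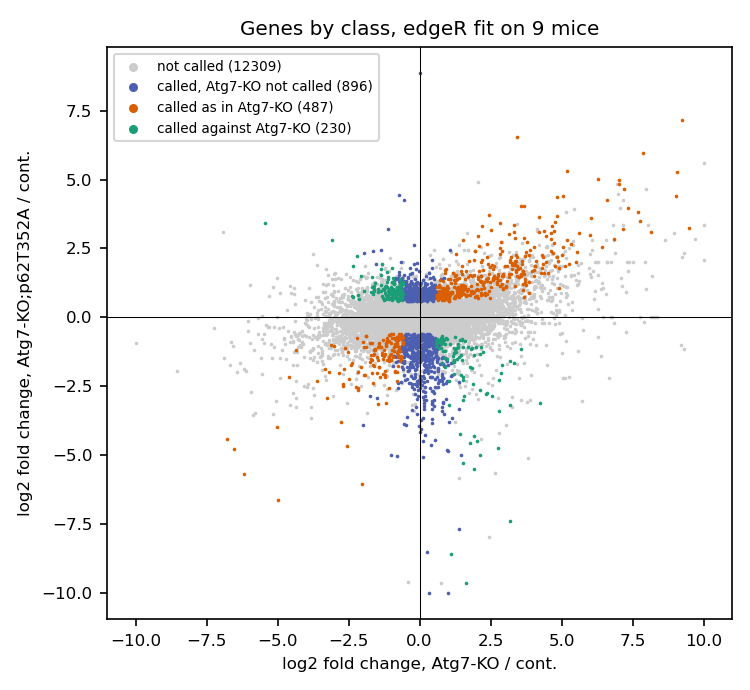
Each point is 1 of the 13922 tested genes, placed by its log2 fold change in Atg7-KO against cont. (x axis) and in Atg7-KO;p62T352A against cont. (y axis), both against the same cont. mice, with changes beyond 10 drawn at 10. Colours mark the 3 classes: 896 called genes were not called in Atg7-KO, 487 lie in the quadrants of equal sign and 230 in those of opposite sign.

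**Figure D2:**
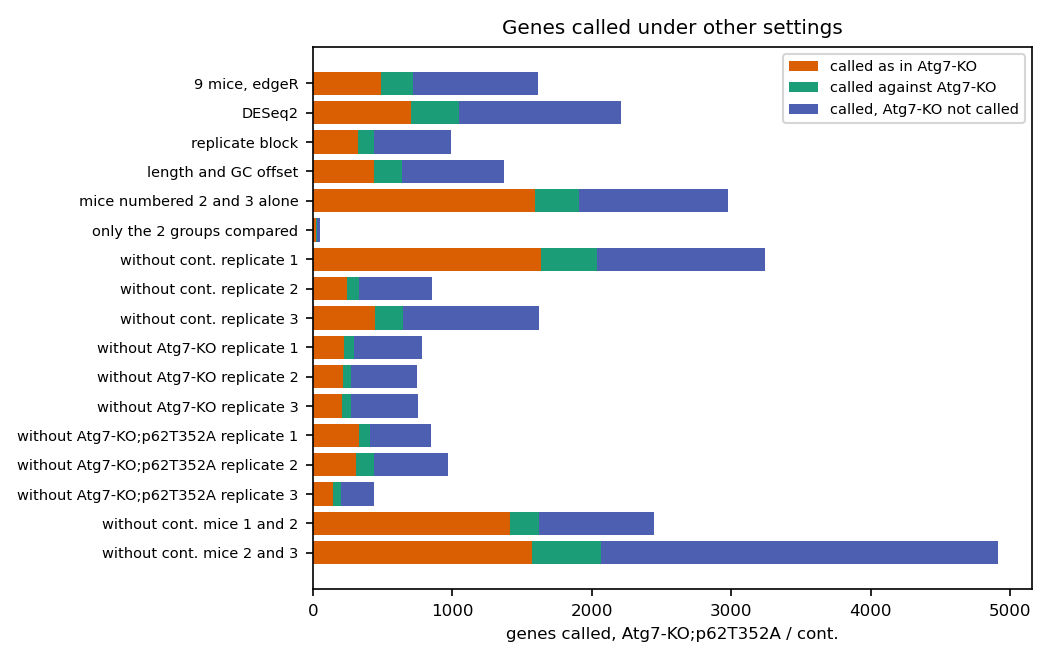
Bars give the number of genes called in Atg7-KO;p62T352A against cont. under each setting, split by class. The count is 1613 with all 9 mice and ranges from 50 with the 6 mice of both genotypes to 4912 when cont. mouse 1 is the only control.

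Genes that stayed higher with p62 T352A included antiviral, bile duct and macrophage genes. Of the 330, 173 were called lower than in Atg7-KO, 150 were not called between these 2 genotypes and 7 were called higher still. The median log2 fold change of the 330 against cont. was 1.42 in Atg7-KO;p62T352A and 2.29 in Atg7-KO. Between Atg7-KO;p62T352A and Atg7-KO themselves, 24.7% of all tested genes were called higher and 26.2% lower in the first. Rsad2, which encodes the antiviral enzyme viperin, stood at 18.1, 17.6 and 24.7 normalized CPM in cont., 636, 721 and 840 in Atg7-KO and 699, 241 and 1452 in Atg7-KO;p62T352A. The 3 Atg7-KO;p62T352A mice varied widely, and all were above the cont. mice (log2 fold change 5.31 ± 0.60, adjusted p = 0.00322). Ifit1, an interferon-induced protein that binds foreign RNA, went from 11.3, 12.1 and 18.8 in cont. to 171, 122 and 393 (log2 fold change 4.02 ± 0.46, adjusted p = 0.00343), next to 130, 213 and 193 in Atg7-KO. Both genes were also called with the 6 mice alone.

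The neuronal glutamate transporter gene Slc1a1 had at most 3 counts in every cont. mouse and 28.8, 5.53 and 38.5 normalized CPM in Atg7-KO;p62T352A, at least 92.8-fold higher against a floor of 3 counts per mouse. In Atg7-KO it stood at 96.9, 102 and 114, and it was called lower in Atg7-KO;p62T352A than there (log2 fold change -2.10). Gldn, encoding gliomedin, had the reverse order: at most 3 counts in each cont. mouse, 0.871, 1.81 and 1.15 normalized CPM in Atg7-KO and 16.4, 3.92 and 12.8 in Atg7-KO;p62T352A, at least 42.2-fold higher than cont. by the same floor. It was called higher than in Atg7-KO too (log2 fold change 3.10). Cib3, of a family of calcium- and integrin-binding proteins, was at 1.89, 0.851 and 0 in cont. and 19.7, 12.2 and 8.03 in Atg7-KO;p62T352A (log2 fold change 3.70 ± 0.76, adjusted p = 0.0175). Apoa4, an apolipoprotein of triglyceride-rich particles, stood at 48.5, 42.6 and 48.5 in cont., at 556, 426 and 433 in Atg7-KO and at 307, 534 and 353 in Atg7-KO;p62T352A, where the log2 fold change was 3.10 ± 0.25 (adjusted p = 0.00146). The last 2 groups overlapped. Hsp90aa1, the stress-inducible cytosolic HSP90, rose in steps, from 296, 245 and 223 in cont. to 424, 512 and 471 in Atg7-KO and 827, 826 and 849 in Atg7-KO;p62T352A (log2 fold change against cont. 1.71 ± 0.18, adjusted p = 0.00322, and against Atg7-KO 0.83).

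**Figure D3:**
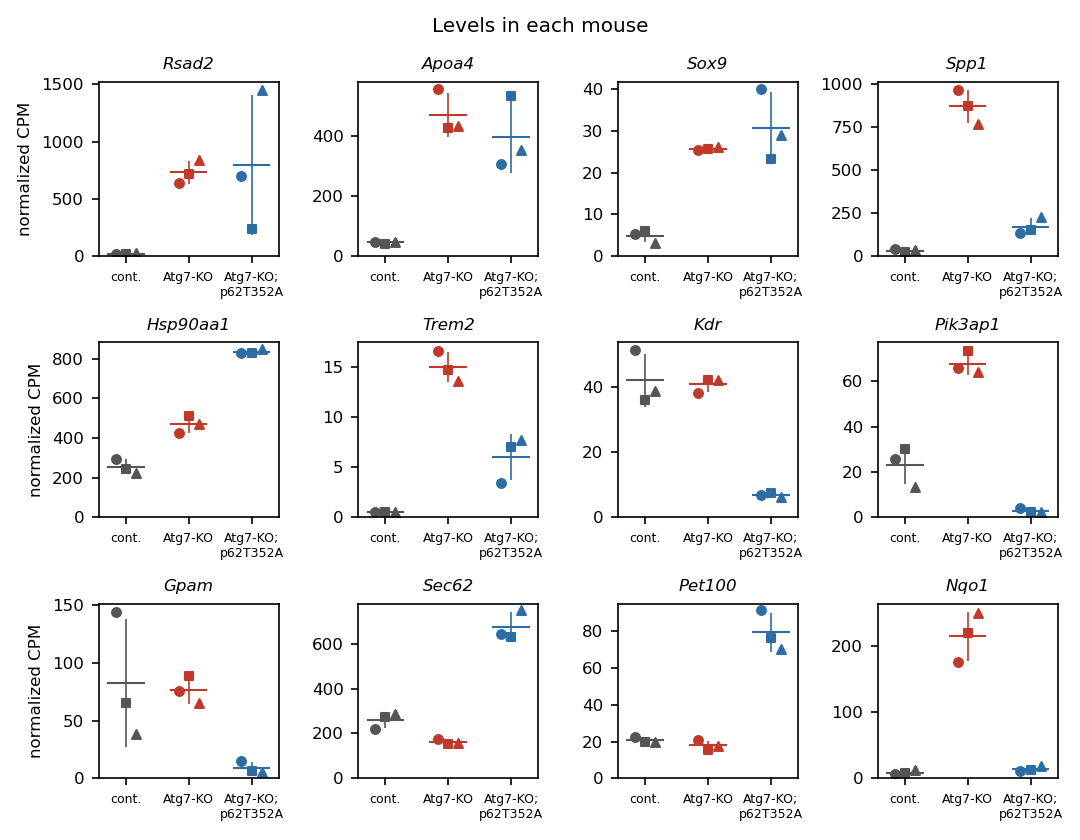
Points show the normalized CPM of 12 genes in each mouse (circle, mouse 1; square, mouse 2; triangle, mouse 3), with the mean (horizontal line) and SD (vertical line, n = 3) of each genotype. Rsad2, Apoa4 and Sox9 in Atg7-KO;p62T352A sit in or near the Atg7-KO range, Spp1 and Trem2 between Atg7-KO and cont., Hsp90aa1, Sec62 and Pet100 above both, Kdr, Pik3ap1 and Gpam below both, and Nqo1 next to cont.

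Part of the interferon-stimulated genes stayed higher. Of 47 tested, 16 rose and none fell in Atg7-KO;p62T352A (34.0% against 6.25% of all genes), and 38 were called higher in Atg7-KO. The list's median was a log2 fold change of 0.82 in Atg7-KO;p62T352A and 1.63 in Atg7-KO, beside 0.0044 and -0.032 over all tested genes. The summed level was 1648, 1709 and 1988 normalized CPM in cont., 3457, 2960 and 5187 in Atg7-KO;p62T352A and 4725, 5775 and 5743 in Atg7-KO. Of the 16 calls 13 held in each fit without 1 mouse, and 3 with the 6 mice alone. Cmpk2, a nucleotide kinase encoded next to Rsad2, stood at 10.8, 7.19 and 6.26 in cont. and at 63.5, 32.4 and 114 in Atg7-KO;p62T352A (log2 fold change 3.10 ± 0.43, adjusted p = 0.00606). Irgm2, an interferon-inducible GTPase, was the lowest member at 59.4, 36.7 and 37.7 in cont. and 21.6, 29.2 and 32.6 in Atg7-KO;p62T352A, with log2 fold change -0.68 and adjusted p = 0.0994.

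Interferon-regulated promoters often hold the core letters GAAANNGAA, so the promoters of the strongest members are shown, from 250 bases before to 50 after the start (RefSeq, GRCm38.p6), with each match on either strand in capitals. The Rsad2 promoter, at chr12:26456403-26456702 on the minus strand, held 1 match, and that of Ifit1, at chr19:34640639-34640938 on the plus strand, held 3, of which 2 overlap.

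Rsad2 promoter: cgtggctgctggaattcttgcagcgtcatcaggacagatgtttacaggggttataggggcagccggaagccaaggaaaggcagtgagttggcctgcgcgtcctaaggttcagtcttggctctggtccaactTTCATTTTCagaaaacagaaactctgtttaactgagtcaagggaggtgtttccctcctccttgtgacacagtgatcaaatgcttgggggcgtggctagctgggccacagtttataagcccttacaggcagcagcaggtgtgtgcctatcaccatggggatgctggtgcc
Ifit1 promoter: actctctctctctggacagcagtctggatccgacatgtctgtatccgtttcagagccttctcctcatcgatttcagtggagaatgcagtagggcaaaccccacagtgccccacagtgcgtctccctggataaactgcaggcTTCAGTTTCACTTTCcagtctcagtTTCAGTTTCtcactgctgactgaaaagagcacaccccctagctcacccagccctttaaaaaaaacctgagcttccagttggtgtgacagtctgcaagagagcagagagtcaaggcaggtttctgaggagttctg

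Promoters were matched for 34 of the 47 interferon-stimulated genes (39 promoters), and 53.8% of them held these letters, against 8.56% of all 32851 promoters of the table. The share was 54.5% among the promoters of called members and 53.6% among those of members not called. The letters were chosen after the values of these genes were seen.

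Genes of other liver cell types and of growth also stayed higher. Of 13 tested cholangiocyte markers 6 were called higher (46.2% against 6.25% of all genes) and none lower. Sox9, a transcription factor of bile duct cells, stood at 5.27, 6.15 and 3.19 in cont., 25.5, 25.6 and 26.1 in Atg7-KO and 39.9, 23.3 and 29.0 in Atg7-KO;p62T352A (log2 fold change 2.65 ± 0.27, adjusted p = 0.00322). Spp1, encoding osteopontin, rose from 43.0, 24.4 and 33.8 in cont. to 135, 154 and 227, well below the 967, 874 and 771 of Atg7-KO (log2 fold change against cont. 2.35 ± 0.28, adjusted p = 0.004). Mmp7, a metalloproteinase, had at most 3 counts in every cont. mouse and 0.50, 1.68 and 1.70 normalized CPM in Atg7-KO;p62T352A. That was at least 4.94-fold higher against the floor, next to 24.2, 17 and 14.3 in Atg7-KO. From such a cont. level a call of lower was hardly possible. Krt19, the bile duct keratin, was not called, at 1.03, 0.946 and 2.31 in cont. and 2.07, 3.15 and 3.20 in Atg7-KO;p62T352A (log2 fold change 1.02, adjusted p = 0.098). The summed level of the 13 cholangiocyte markers was 225 to 399 in cont., 630 to 820 in Atg7-KO;p62T352A and 1174 to 1377 in Atg7-KO. Spp1 alone held 967, 874 and 771 of the 1377, 1264 and 1174 in Atg7-KO. Without Spp1 the sum was higher in each Atg7-KO;p62T352A mouse than in each Atg7-KO mouse. In whole liver, fewer cells of a type and less RNA per cell cannot be told apart.

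Of 16 markers of monocytes and lipid-associated macrophages, 7 were called higher (43.75% against 6.25% of all genes) and none lower, next to 16 higher in Atg7-KO. Members near 0 in cont., such as Trem2 and Mmp12, had little room to be called lower. Trem2, a lipid receptor of such macrophages, stood at 0.516, 0.567 and 0.550 in cont., 16.6, 14.7 and 13.6 in Atg7-KO and 3.43, 7.00 and 7.70 in Atg7-KO;p62T352A (log2 fold change 3.47 ± 0.36, adjusted p = 0.00322). Mmp12, the macrophage elastase, went from 0.287, 0.0946 and 0.220 in cont. to 1.79, 3.36 and 4.24, against 59.1, 38.3 and 37.5 in Atg7-KO (log2 fold change 3.84, adjusted p = 0.00494). Lyz2, a general myeloid lysozyme, showed no such pattern, with 72.5, 33.6 and 16.3 in cont. and 10.4, 39.2 and 23.8 in Atg7-KO;p62T352A (log2 fold change -0.74, adjusted p = 0.405). The summed level of the list was 116 to 199 in cont., 223 to 386 in Atg7-KO;p62T352A and 1781 to 1975 in Atg7-KO. Spp1 is also in this list, and held 135, 154 and 227 of the 223, 317 and 386 in Atg7-KO;p62T352A. In cont. Spp1 held 43.0, 24.4 and 33.8 of 199, 116 and 117. Without Spp1 the sums of these 2 genotypes overlapped. None of 14 Kupffer cell markers was called by edgeR (2 at an unadjusted p below 0.05, 1 called by DESeq2). For a list of 14 this is close to the background of 6.25% higher and 5.34% lower. The summed level was 492 to 695 in cont. and 358 to 716 in Atg7-KO;p62T352A. In Atg7-KO 11 of the Kupffer cell markers were called higher, against 21.6% of all genes. Adgre1 was lowest of these in Atg7-KO;p62T352A (log2 fold change -0.78, adjusted p = 0.298) and Marco highest (1.11, adjusted p = 0.0775).

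Of 18 stellate cell and fibroblast markers, 4 were called higher (22.2% against 6.25% of all genes) and none lower, next to 12 higher in Atg7-KO. Without cont. mouse 2 it was 1, which held in each fit without 1 mouse. Timp1, an inhibitor of metalloproteinases, had at most 3 counts in every cont. mouse and 0.643, 0.841 and 1.70 normalized CPM in Atg7-KO;p62T352A. That was at least 4.05-fold higher against the floor, and a call of lower was hardly possible from such a cont. level. Col1a2, a chain of type I collagen, stood at 11.4, 13.5 and 19.5 in cont., 41.5, 30.1 and 77.9 in Atg7-KO;p62T352A and 121, 164 and 141 in Atg7-KO (log2 fold change against cont. 1.76 ± 0.35, adjusted p = 0.0157). Of 14 T and NK cell markers 3 were called higher, 21.4% against 6.25% of all genes. They were Cd8a, Ccl5 and Cd8b1, at log2 fold changes of 2.44, 1.95 and 1.49, and Prf1 had no count in any Atg7-KO;p62T352A mouse. None of the list was called higher without cont. mouse 2 or without Atg7-KO;p62T352A mouse 1 or 3. Of 32 chemokines and receptors 6 were called higher (18.75% against 6.25% of all genes) and none lower. None of the 6 held in each fit without 1 mouse, and 1 was called without cont. mouse 2. Cxcl10, an interferon-induced chemokine, was at 6.13, 4.35 and 4.95 in cont. and 16.7, 13.3 and 52.3 in Atg7-KO;p62T352A (log2 fold change 2.41 ± 0.50, adjusted p = 0.0175).

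Of 40 cell cycle genes 11 were called higher (27.5% against 6.25% of all genes) and none lower. The median log2 fold change was 0.88 against 3.15 in Atg7-KO, where 36 were called higher. Ube2c, a ubiquitin-conjugating enzyme of mitosis, stood at 0.802, 0.378 and 0.879 in cont., 10.8, 18.8 and 24.0 in Atg7-KO and 2.78, 7.71 and 10.1 in Atg7-KO;p62T352A (log2 fold change 3.30 ± 0.56, adjusted p = 0.00973). Of the 11, 3 stayed called without cont. mouse 2, and without Atg7-KO;p62T352A mouse 3 the list had 1 call. Of 34 genes of p53 targets and cell death 8 were called higher and 2 lower (23.5% and 5.88%, against 6.25% and 5.34% of all genes). Without Atg7-KO;p62T352A mouse 3, 2 were called higher. Cdkn1a, the cell cycle inhibitor p21, was at 36.5, 38.2 and 9.67 in cont., 98.4, 113 and 111 in Atg7-KO and 136, 110 and 113 in Atg7-KO;p62T352A (log2 fold change 2.08 ± 0.42, adjusted p = 0.0157). Phlda3, a p53-induced inhibitor of AKT signalling, went from 0.688, 0.189 and 0.659 to 1.79, 2.80 and 2.68, next to 12.1, 17.8 and 16.1 in Atg7-KO (log2 fold change against cont. 2.19 ± 0.40, adjusted p = 0.0114). Sesn1, a sestrin, was called lower, from 17.3, 25.3 and 28.6 to 10.4, 12.5 and 11.9 (log2 fold change -1.03 ± 0.21, adjusted p = 0.0163). Of 25 oncofetal and tumour marker genes 11 were called higher, 44% against 6.25% of all genes. Among them Akr1c18, a steroid dehydrogenase, stood at 0, 0.0946 and 0.440 in cont., 3.71, 1.33 and 3.52 in Atg7-KO;p62T352A and 8.32, 17.1 and 17.4 in Atg7-KO (log2 fold change against cont. 4.27 ± 0.82, adjusted p = 0.0134). Peg3, an imprinted zinc finger gene, was called lower (log2 fold change -2.84, adjusted p = 0.0448), with 2.18, 24.9 and 17.1 in cont. and 3.36, 0.771 and 1.96 in Atg7-KO;p62T352A, so the groups overlapped at cont. mouse 1.

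**Figure D4:**
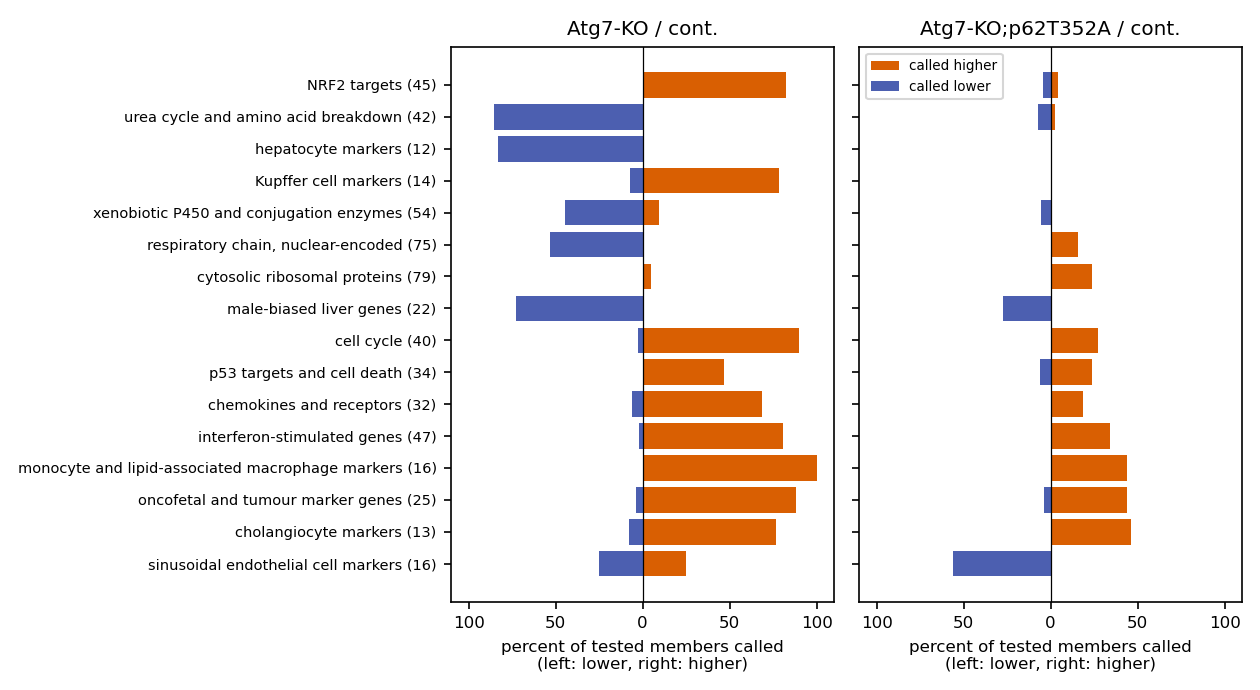
Bars give the percent of tested members (number in parentheses) of 16 gene lists called higher (right of 0) or lower (left of 0) than cont., with a panel each for Atg7-KO and Atg7-KO;p62T352A. NRF2 targets, urea cycle genes, hepatocyte markers and Kupffer cell markers have short or no bars in Atg7-KO;p62T352A, interferon-stimulated genes and cholangiocyte markers keep bars to the right, and sinusoidal endothelial markers have a bar to the left with 9 of 16 called lower.

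Few NRF2 targets were called, at shares close to the background, though the count moved with the cont. mice. Of 45 tested, Atg7-KO;p62T352A had 2 called higher and 2 called lower, next to 37 higher in Atg7-KO, and the median log2 fold change was 0.038 against 1.86. Without cont. mouse 1, 8 were called higher and 3 lower, with the mice numbered 2 and 3 alone 6 and 2, and without cont. mouse 2 none and 1. Over all genes these fits called 1514 higher and 1731 lower, 1314 and 1661, and 310 and 542. Nqo1, a quinone reductase, stood at 6.36, 7.28 and 12.2 normalized CPM in cont., 175, 219 and 249 in Atg7-KO and 11.7, 13.2 and 18.4 in Atg7-KO;p62T352A (log2 fold change against cont. 0.75 ± 0.28, adjusted p = 0.117). Its cont. and Atg7-KO;p62T352A ranges overlapped. Ugdh, Gclc, Pgd and Gstm1, enzymes of glucuronate, glutathione, pentose phosphate and conjugation pathways, had log2 fold changes of 0.19, 0.0024, 0.30 and 0.38 against cont., with adjusted p from 0.35 to 0.998. Other members without a call lay farther from cont. Gsta1 was highest of the list at 2.33 (adjusted p = 0.0645), followed by Gstp2 at 1.51 (adjusted p = 0.0931). Akr1c13 was lowest of those not called, at -1.22 (adjusted p = 0.0703). Of the called members, Txn1, encoding thioredoxin, and Ftl1, the ferritin light chain, were higher (log2 fold change 0.81 each), and the conjugate exporters Abcc2, of the canalicular side, and Abcc3 were lower (-1.55 and -0.80). Keap1 stood at 52.3, 53.8 and 55.5 in cont. and 59.1, 77.3 and 64 in Atg7-KO;p62T352A (log2 fold change 0.31, adjusted p = 0.219), and Nfe2l2, encoding NRF2, at 70.9, 205 and 244 against 168, 71.1 and 106 (log2 fold change -0.59, adjusted p = 0.404).

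Most hepatocyte lists also had few calls. None of 12 hepatocyte markers was called by edgeR, where 6.25% of all genes were called higher and 5.34% lower. For a list of 12 this is close to the background. In Atg7-KO 10 were called lower, against 22.1% of all genes. In Atg7-KO;p62T352A 2 had an unadjusted p below 0.05 and DESeq2 called 1. Alb stood at 91863, 51486 and 44371 normalized CPM in cont. and 74513, 84968 and 77979 in Atg7-KO;p62T352A (log2 fold change 0.34, adjusted p = 0.518). Of 42 urea cycle and amino acid genes 3 were called lower and 1 higher (7.14% and 2.38%, against 5.34% and 6.25% of all genes), where 36 were lower in Atg7-KO. Without cont. mouse 1, 6 were called lower, and without Atg7-KO;p62T352A mouse 3 none was. Gnmt, the methyltransferase that sets the S-adenosylmethionine level, was among those that stayed lower, at 2119, 1049 and 1505 in cont., 634, 458 and 407 in Atg7-KO and 430, 590 and 394 in Atg7-KO;p62T352A (log2 fold change -1.72 ± 0.31, adjusted p = 0.0107). Cps1, the entry enzyme of the urea cycle, did so too, from 4730, 2522 and 2401 to 1439, 1536 and 1323 (log2 fold change -1.17 ± 0.28, adjusted p = 0.028). Sdsl, a serine dehydratase-like gene, was called higher (1.06 ± 0.25, adjusted p = 0.0277). Of 54 P450 and conjugation enzymes 3 were called lower, 5.56% against 5.34% of all genes. Without cont. mouse 1 it was 11, and without Atg7-KO;p62T352A mouse 3 it was 1. Among the 3, Cyp2c29 stood at 2651, 1035 and 912 in cont. and 172, 430 and 211 in Atg7-KO;p62T352A (log2 fold change -2.50 ± 0.50, adjusted p = 0.016). The lipid-sensing receptor Ppara was called lower, at a log2 fold change of -0.76. In cholesterol synthesis and uptake 1 of 25 was called lower (4% against 5.34% of all genes) and none higher. It was the sterol carrier Stard4, at 55.1, 24.1 and 28.8 in cont. and 10.1, 9.18 and 9.14 in Atg7-KO;p62T352A (log2 fold change -1.93 ± 0.30, adjusted p = 0.00813).

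Some male-biased liver genes were called lower. Of 22 tested, 6 were called lower (27.3% against 5.34% of all genes) and none higher (median log2 fold change -1.35), and 1 of the 6 held in each fit without 1 mouse. The summed level was 81720, 30047 and 7764 in cont. and 29966, 7140 and 4824 in Atg7-KO;p62T352A, so the groups overlapped. None of 29 female-biased genes was called by edgeR (4 at an unadjusted p below 0.05, 2 called by DESeq2), where 6.25% of all genes were called higher and 5.34% lower. Each genotype held 1 mouse with a low and 2 with a high Xist level. The cont. library numbered 2 also held 36.5% of the Y-linked level of library 1, against 11.5% in Atg7-KO;p62T352A. The effect of this on the male-biased genes was not tested. Susd4, a complement regulator, stood at 27.6, 17 and 9.23 in cont., 0.193, 0.822 and 0.597 in Atg7-KO and 2.5, 0.420 and 0.522 in Atg7-KO;p62T352A (log2 fold change -3.98 ± 0.70, adjusted p = 0.0104). Mup7, Mup1 and Mup12, of the major urinary proteins, were among the 6 called, with log2 fold changes of -5.67, -4.76 and -4.40. In them 57.8% to 80.3% of the 75-base stretches also occur in another gene, so reads can be split wrongly between copies. The share of 27.3% thus rests in part on these Mup genes. The sum over 13 Mup genes was 169422, 75513 and 48015 in cont., 69088, 43797 and 29212 in Atg7-KO;p62T352A and 745 to 2899 in Atg7-KO, so the first 2 groups overlapped. Gabbr2, a subunit of the GABA-B receptor, was called lower from 15.5, 6.34 and 2.42 to 1.21, 0.911 and 0.653 (log2 fold change -3.14 ± 0.61, adjusted p = 0.0142) and was also lower than in Atg7-KO. The 157 genes that stayed lower had a median log2 fold change of -1.23 in Atg7-KO;p62T352A and -1.17 in Atg7-KO. Between these 2 genotypes 126 of them were not called, 16 were called higher in Atg7-KO;p62T352A and 15 lower.

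Dbp, a clock-controlled transcription factor with a strong daily rhythm, was called lower (log2 fold change -6.62 ± 1.48, adjusted p = 0.0231). Its level was 0.860, 79.8 and 193 in cont., 1.02, 4.27 and 3.37 in Atg7-KO and 1.00, 0.981 and 0.783 in Atg7-KO;p62T352A, so cont. mouse 1 stood with the other genotypes. The circadian list had 1 gene called higher (Rora) and 1 lower of 20, with median log2 fold change -0.83. Each was 5% of the list, against 6.25% higher and 5.34% lower over all genes. Without cont. mouse 1, 3 were called higher and 12 lower, where over all genes 1514 were called higher and 1731 lower.

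The 230 genes that overshot were called against cont. in both genotypes in opposite directions and, by construction, between Atg7-KO;p62T352A and Atg7-KO. The 136 that were lower in Atg7-KO and higher in Atg7-KO;p62T352A had median log2 fold changes of -0.94 and 0.94. Sec62, a translocon protein and a receptor for autophagy of the endoplasmic reticulum, stood at 218, 275 and 286 normalized CPM in cont., 173, 151 and 160 in Atg7-KO and 642, 630 and 750 in Atg7-KO;p62T352A (log2 fold change against cont. 1.38 ± 0.18, adjusted p = 0.00568). No mouse of these 3 groups overlapped another group. Ube3a, a ubiquitin ligase, went from 37.4, 62.1 and 62.6 in cont. to 28.0, 30.1 and 25.8 in Atg7-KO and 163, 110 and 164 in Atg7-KO;p62T352A (log2 fold change 1.43 ± 0.24, adjusted p = 0.0097). Inhba, a subunit of activin, was at 1.95, 2.74 and 2.75 in cont., 1.16, 1.19 and 1.07 in Atg7-KO and 7.00, 6.44 and 5.74 in Atg7-KO;p62T352A (log2 fold change 1.38 ± 0.23, adjusted p = 0.00967). Igf1, the growth factor that the liver secretes under growth hormone, was at 746, 924 and 897 in cont., 165, 185 and 149 in Atg7-KO and 1526, 1335 and 1576 in Atg7-KO;p62T352A (log2 fold change 0.79 ± 0.19, adjusted p = 0.0272), and it was called in 3 of the 9 fits without 1 mouse. Lrrc71, Etohd2 and Cntd1, whose functions are less known, overshot at 2.80, 1.93 and 1.55.

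Among other receptors of selective autophagy in the list of 20, Fam134c and Atl3 were called lower, at -1.05 and -0.88. That was 10% against 5.34% of all genes, and Sec62 alone was called higher (5% against 6.25%). Fam134c stood at 87.5, 57.3 and 50.3 in cont. and 23.3, 43.4 and 28.0 in Atg7-KO;p62T352A. Tex264 and Ccpg1 were not called (log2 fold changes 0.57 and 0.11, adjusted p = 0.0686 and 0.788). Of 30 core autophagy genes 1 was called lower (3.33% against 5.34% of all genes), Ambra1, which promotes autophagy initiation (-0.73, adjusted p = 0.042). Of 36 lysosomal genes 1 was called higher (2.78% against 6.25% of all genes), the protease gene Ctsz (0.82, adjusted p = 0.0222). Neither call held in each fit without 1 mouse, nor did those of Fam134c and Atl3.

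The 94 genes that were higher in Atg7-KO and below cont. in Atg7-KO;p62T352A had median log2 fold changes of 1.37 and -1.36. Pik3ap1, an adaptor that links receptors to PI3-kinase in immune cells, stood at 25.9, 30.2 and 13.5 in cont., 65.8, 73.5 and 63.9 in Atg7-KO and 4.07, 2.24 and 2.42 in Atg7-KO;p62T352A (log2 fold change against cont. -3.00 ± 0.34, adjusted p = 0.00322). It was also called with the 6 mice alone. Hgf, the hepatocyte growth factor, was at 9.00, 3.78 and 3.96 in cont., 13, 12.2 and 9.68 in Atg7-KO and 1.07, 0.700 and 1.63 in Atg7-KO;p62T352A (log2 fold change -2.31 ± 0.42, adjusted p = 0.0114). Sesn2, a stress-induced sestrin, went from 5.67, 6.62 and 4.4 to 17.4, 21.4 and 19.2 and to 2.64, 2.24 and 2.68 in the same order (log2 fold change against cont. -1.14 ± 0.21, adjusted p = 0.0125). Megf9, at 12.1, 3.59 and 1.54 in cont. and 0.643, 0.841 and 1.17 in Atg7-KO;p62T352A, was called in 3 of the 9 fits without 1 mouse.

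Genes of antigen presentation moved both ways. Of 25 tested, 5 were called higher and 2 lower (20% and 8%, against 6.25% and 5.34% of all genes). None of the 5 was called without cont. mouse 2 or without Atg7-KO;p62T352A mouse 3, while the 2 lower ones were called in each fit without 1 mouse. H2-T22, a nonclassical class I gene, stood at 23.9, 18 and 7.58 in cont., 109, 126 and 131 in Atg7-KO and 3.93, 3.64 and 4.57 in Atg7-KO;p62T352A (log2 fold change -2.03 ± 0.36, adjusted p = 0.0104), and 18.5% of its stretches are shared with other genes. H2-Q8 had 11.3, 2.93 and 3.41 in cont. and no count in any Atg7-KO;p62T352A mouse, at least 28.5-fold lower against the floor. H2-Q8 was not matched to the annotation, and its sharing with near-identical H2-Q genes could not be computed. H2-Q1 went the other way, from 1.95, 2.27 and 8.02 in cont. to 13.9, 10.3 and 23.6 (log2 fold change 2.01, adjusted p = 0.0333), and Tapbp, the peptide-loading protein tapasin, from 69.1, 72.0 and 103 to 130, 174 and 201 (1.05, adjusted p = 0.021). Pcdhgc3, of the protocadherin gamma cluster, was called lower at -4.25 with 37.3% of its stretches shared, while the sum over 13 genes of the cluster was 16.6, 19.7 and 17.3 in cont. and 8.85, 10.8 and 13.4 in Atg7-KO;p62T352A.

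Of the 896 genes called in Atg7-KO;p62T352A but not in Atg7-KO, 743 were also called between the 2 genotypes in the same direction and 153 were not, so for the latter a difference from Atg7-KO is not shown. Of the 404 higher ones, Pet100, an assembly factor of cytochrome c oxidase, stood at 22.6, 19.6 and 19.8 normalized CPM in cont., 20.6, 15.4 and 17.8 in Atg7-KO and 91.3, 76.4 and 70.4 in Atg7-KO;p62T352A (log2 fold change against cont. 1.94 ± 0.18, adjusted p = 0.00269). Tmod1, which caps actin filaments, stood at 0.172, 0.851 and 1.43 in cont., 0.677, 0.411 and 0.256 in Atg7-KO and 17.9, 14.2 and 17 in Atg7-KO;p62T352A (log2 fold change 4.46 ± 0.54, adjusted p = 0.00426). Tmem255a, a membrane protein gene, was at 0.287, 0.189 and 1.54 in cont. and 14.3, 8.83 and 12.1 in Atg7-KO;p62T352A (log2 fold change 4.26 ± 0.63, adjusted p = 0.00713). These 3 genes were also called with the 6 mice alone. Lrrc17, a secreted leucine-rich repeat protein gene, was at 3.44, 4.73 and 6.81 in cont. and 24.6, 13.7 and 20.9 in Atg7-KO;p62T352A (log2 fold change 2.00 ± 0.33, adjusted p = 0.00937). Pcdhgb4 was called higher at 2.62, but the sum over 13 protocadherin genes that share its stretches overlapped between the groups.

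Sinusoidal endothelial cell markers were the list with the largest share called lower. Of 16 tested 9 were called lower and none higher (56.3% against 5.34% of all genes), with median log2 fold change -0.87, while Atg7-KO had 4 higher and 4 lower. The summed level was 666, 841 and 762 normalized CPM in cont., 606, 626 and 637 in Atg7-KO and 385, 448 and 421 in Atg7-KO;p62T352A, and no marker of the list was at 0 in all 3 of the latter. Kdr, the VEGF receptor 2, stood at 51.3, 36.0 and 38.8 in cont., 38.0, 42.1 and 41.9 in Atg7-KO and 6.85, 7.50 and 6.20 in Atg7-KO;p62T352A (log2 fold change -2.62 ± 0.19, adjusted p = 0.00142), and was called with the 6 mice alone. Bmp6, the factor through which these cells control hepcidin, was at 4.58, 1.89 and 1.87 in cont., 14.0, 16.7 and 19.5 in Atg7-KO and 0.143, 0.700 and 0.326 in Atg7-KO;p62T352A (log2 fold change -2.86 ± 0.53, adjusted p = 0.0122). Gpr182, an endothelial chemokine scavenger, went from 31.4, 17.6 and 12.2 to 5.64, 8.41 and 4.96 (log2 fold change -1.70 ± 0.34, adjusted p = 0.0155). Rspo3, a Wnt enhancer of central vein endothelium, had 8.25, 13.1 and 15.5 in cont. and 19.9, 17.7 and 30.4 in Atg7-KO;p62T352A, with log2 fold change 0.89 and adjusted p = 0.0701. The count was 9 with the length and GC correction and ranged from 4 (without Atg7-KO;p62T352A mouse 3) to 10 (without cont. mouse 1) when 1 mouse was left out. Of the 9 calls 4 held in all of these fits, and 1 with the 6 mice alone.

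Among the other newly lower genes, Gpam, the enzyme that starts glycerolipid synthesis, stood at 144, 65 and 38.1 in cont., 75.6, 88.8 and 65.2 in Atg7-KO and 14.7, 5.95 and 5.61 in Atg7-KO;p62T352A (log2 fold change -3.24 ± 0.53, adjusted p = 0.00937). Ern1, encoding the stress sensor IRE1, was at 31.6, 14.4 and 9.78 in cont., 25.9, 29.4 and 21 in Atg7-KO and 1.79, 2.03 and 1.76 in Atg7-KO;p62T352A (log2 fold change -3.33 ± 0.42, adjusted p = 0.00474). Of the 29 genes of ER chaperones and the unfolded protein response, only Ern1 and Dnajb9 were called, the latter at -1.92. These lower calls were 6.90% of the list, against 5.34% of all genes. Abcc2 stood at 356, 289 and 312 in cont., 356, 398 and 346 in Atg7-KO and 118, 86.4 and 123 in Atg7-KO;p62T352A (log2 fold change -1.55 ± 0.19, adjusted p = 0.0048). Nr5a2, a nuclear receptor of bile acid and cholesterol genes, was at 54.0, 38.1 and 34.3 in cont. and 17.1, 11.2 and 12.3 in Atg7-KO;p62T352A (log2 fold change -1.64 ± 0.23, adjusted p = 0.00606). Masp1, a protease of the lectin complement pathway, went from 66.4, 36.8 and 17.3 to 8.28, 5.25 and 5.29 (log2 fold change -2.68 ± 0.43, adjusted p = 0.00897).

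Gna12, a G protein subunit, and Sntb1, a syntrophin, were lower by -4.28 and -4.44 on the log2 scale. Gna12 stood at 70.5, 26.9 and 11.1 in cont., 39.0, 45.2 and 41.5 in Atg7-KO and 2.64, 1.82 and 1.17 in Atg7-KO;p62T352A, and Sntb1 at 26.4, 11.0 and 4.4, at 20.02, 22.4 and 19.1, and at 0.857, 0.630 and 0.457. In both, cont. mouse 3 lay nearest to Atg7-KO;p62T352A and cont. mouse 1 farthest. Levels that fell from cont. mouse 1 over 2 to 3 were found in 45.3% of the 492 newly lower genes, against 26.0% of all tested genes. Levels that rose in that sequence were found in 50.7% of the 136 genes that overshot upwards, against 25.9% of all, so cont. mouse 3 was again nearest to Atg7-KO;p62T352A and cont. mouse 1 farthest. Without cont. mouse 1, 440 of the 492 stayed called, and without cont. mouse 2, 350. With cont. mouse 3 as the only control 316 of the 492 stayed called, with cont. mouse 1 as the only control 452, and 282 in both.

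Several strong newly lower calls belonged to genes with near-identical partners. Eno1, encoding the glycolytic enzyme enolase 1, stood at 464, 175 and 66.3 in cont. and 6.71, 11.3 and 4.37 in Atg7-KO;p62T352A (log2 fold change -4.98 ± 0.69, adjusted p = 0.00606), and 22.6% of its stretches are shared with Eno1b. Eno1b went the other way, from 51.8, 112 and 266 in cont. to 249, 389 and 193, and the sum of both was 516, 287 and 332 in cont. and 256, 401 and 197 in Atg7-KO;p62T352A, which overlapped. For the alpha globins Hba-a1 and Hba-a2 the log2 fold change of Hba-a1 was -7.68 and that of the ratio of summed means -0.012. Ugt1a1, the enzyme that conjugates bilirubin, was called lower at -3.38, with 634, 340 and 196 in cont. and 33.0, 46.5 and 33.2 in Atg7-KO;p62T352A. It shares its last exons with the other Ugt1a genes, and the sum over 8 of them was 1372, 1129 and 1371 in cont. and 880, 1196 and 1017 in Atg7-KO;p62T352A, which overlapped. The sum over Srp54a, Srp54b and Srp54c was 134, 74.5 and 72.5 in cont. and 51.4, 68.4 and 51.7 in Atg7-KO;p62T352A, while Srp54b alone had a log2 fold change of -4.62. Levels of these single genes are therefore uncertain, and Eno1b, Hba-a2, Srp54a and Srp54c were named after their values were seen. At least 20% of stretches were shared in 19 of the 492 newly lower genes and in 404 of all 13922.

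Short transcripts were higher and long ones lower across the whole comparison. The median log2 fold change fell from 0.30 in the shortest quintile of transcripts to -0.23 in the longest, and calls numbered 366 higher and 42 lower in the former against 90 and 307 in the latter. In Atg7-KO the same medians were -0.071 and -0.053. The newly higher genes had a median length of 2001 bases and the newly lower ones of 4817, against 3318 over all. An alternative with an offset for length and GC content called 224 of the 404 newly higher and 356 of the 492 newly lower genes. The part of RNA quality in this was not tested.

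**Figure D5:**
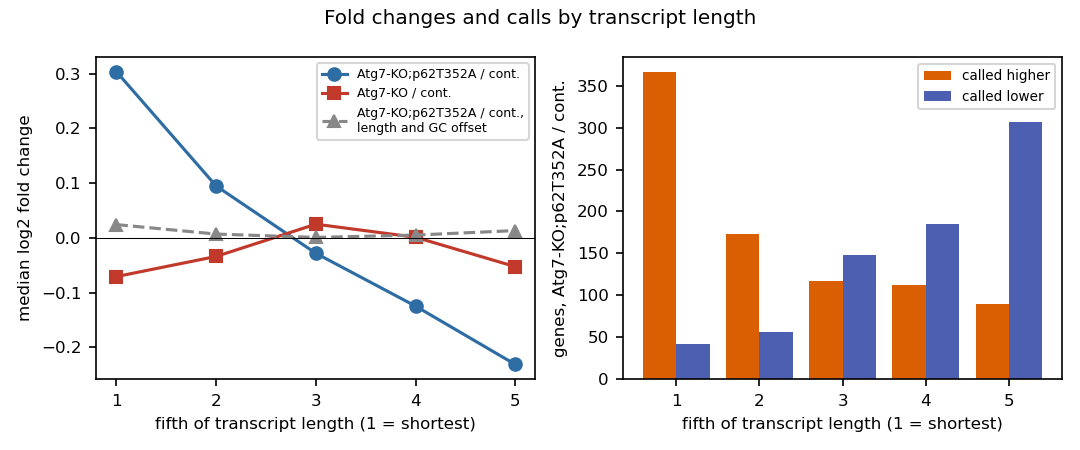
Left, the median log2 fold change against cont. in each quintile of transcript length for Atg7-KO;p62T352A, Atg7-KO, and Atg7-KO;p62T352A with the length and GC offset. Right, the number of calls in each direction by quintile for Atg7-KO;p62T352A: 366 up and 42 down in the shortest, 90 up and 307 down in the longest.

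Lists of short genes were called higher, and their counts moved with that correction. Of 79 cytosolic ribosomal protein genes 19 were called higher (24.1% against 6.25% of all genes) and none lower (median log2 fold change 0.45, median length 1059 bases), and 9 higher and 1 lower with the offset, where the median was 0.13. Without cont. mouse 1 it was 37 higher, without cont. mouse 2 it was 4 and without Atg7-KO;p62T352A mouse 3 it was 3. Over all genes these fits called 1514, 310 and 244 higher, in place of 870. In the list, 3 calls held in each fit without 1 mouse. Rpl13a stood at 552, 572 and 534 in cont. and 1017, 1186 and 1049 in Atg7-KO;p62T352A (log2 fold change 0.97 ± 0.17, adjusted p = 0.0106). Of 75 nuclear-encoded respiratory chain genes 12 were called higher (16% against 6.25% of all genes, median 0.30), and 4 with the offset (median -0.014), while 40 were called lower in Atg7-KO. The count was 3 without cont. mouse 2 and 2 without Atg7-KO;p62T352A mouse 1 or 3, and 2 held in each fit without 1 mouse. Ndufb4, a complex I subunit, stood at 120, 121 and 150 in cont., 81.2, 68.7 and 74.6 in Atg7-KO and 314, 255 and 265 in Atg7-KO;p62T352A (log2 fold change 1.09 ± 0.18, adjusted p = 0.00896). Of 77 mitochondrial ribosome genes 13 were called higher (16.9% against 6.25% of all genes) and 1 lower, and 4 higher with the offset. Without cont. mouse 1 it was 21 higher and without cont. mouse 2 it was 6, and 5 held in each fit without 1 mouse. Of 31 proteasome genes 6 were called higher (19.4% against 6.25% of all genes), and 3 higher and 1 lower with the offset. Without cont. mouse 2 it was 2 and without Atg7-KO;p62T352A mouse 3 it was 1, which held in each fit without 1 mouse. Psmd1, a subunit of the regulatory particle, stood at 136, 203 and 240 in cont., 98.1, 95.2 and 101 in Atg7-KO and 390, 389 and 410 in Atg7-KO;p62T352A (log2 fold change 1.04 ± 0.21, adjusted p = 0.0175). Interferon-stimulated genes had 15 calls and cholangiocyte markers 5 with the offset.

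Genes near the engineered alleles were called about as often as the rest. Within 10 Mb of Sqstm1 (chr11:50199366-50210827) 8 of 157 tested genes were called higher and 5 lower, 8.28% against 11.6% of all. Within 10 Mb of Atg7 (chr6:114643097-114860614) 9 of 127 were called higher and 6 lower, 11.8%. Nnt, a mitochondrial transhydrogenase gene that differs between C57BL/6 substrains, was at 139, 104 and 105 in cont. and 84.2, 116 and 91.7 in Atg7-KO;p62T352A, with no call (log2 fold change -0.26, adjusted p = 0.419).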

How the data were processed

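Liver poly(A) RNA of 9 mice was sequenced as 75-base single-end reads. Per the labels and the study's methods, the authors trimmed reads with Trim Galore, aligned them to mm10 with STAR and estimated counts with RSEM, with versions not given in the sources used here. The deposited table holds these expected counts per gene and was rounded to whole numbers here. No column was left out (0 not used). Groups came from the labels, which name the mice as separate samples and say no more about them. The p-values rest on a spread estimated over all 9 samples, not only over the 6 compared. That estimate includes the Atg7-KO mice, whose median SD was 0.112, against 0.385 in cont. and 0.237 in Atg7-KO;p62T352A. With the 6 mice alone 50 genes were called in place of 1613. Genes were kept by edgeR's filterByExpr and scaled by TMM, and 1 quasi-likelihood model with a term per genotype was fitted to all 9 mice (edgeR 4.0.16, limma 3.58.1, R 4.3.3), with Benjamini-Hochberg adjustment over 13922 genes. Alternatives included DESeq2 1.42.0, other filters and scalings, offsets for transcript length and GC content, and fits without single mice. Python 3.11.15 with numpy 2.4.6, pandas 2.3.3 and matplotlib 3.10.9 made the summaries and plots. Of 24411 genes, 24046 were matched to the GENCODE M21 annotation (23376 by symbol, 670 by synonym). Sharing between genes was computed as the percent of 75-base stretches of a gene's transcripts that occur in another gene.

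Named genes were the genotype and pathway genes of the study, in each class the 5 with the largest log2 fold change at a mean of at least 5 normalized CPM and without overlap between groups, and in each list the highest and lowest members with up to 2 more called ones. The Y-linked genes and the partners of genes with shared sequence were added after their values were seen. The comparison, its gene lists and the named-gene rule were chosen with earlier results of these data known. The fitting code was tested on simulated data with known changes.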

Additional observations from a re-analysis of the deposited data

How the results depend on the processing

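The number of genes called, 1613 (870 higher, 743 lower; 487 in the direction of Atg7-KO, 230 against it, 896 not called in Atg7-KO), moved with the fit. Requiring a fold above 1.5 in the test itself (glmTreat) gave 253 (101 higher, 152 lower; 85, 11 and 157 by class) and 4718 genes between Atg7-KO;p62T352A and Atg7-KO in place of 7095. The 6 mice alone gave 50 (23 higher, 27 lower; 25, 3 and 22). The mice numbered 2 and 3 alone gave 2975 (1314 higher, 1661 lower) with 1594 in the direction of Atg7-KO, and DESeq2 called 1184 lower. Leaving out 1 mouse at a time gave 435 to 3245 genes in all, 244 to 1514 higher, 191 to 1731 lower, 141 to 1637 in the direction of Atg7-KO, 61 to 402 against it, 233 to 1206 not called in Atg7-KO, and 5652 to 8142 between Atg7-KO;p62T352A and Atg7-KO. The highest came without cont. mouse 1 (3245) and the lowest without Atg7-KO;p62T352A mouse 3 (435). The others were 852 and 1620 without cont. mice 2 and 3, 781, 750 and 751 without Atg7-KO mice 1, 2 and 3, and 847 and 972 without Atg7-KO;p62T352A mice 1 and 2. Chosen after seeing the data, cont. mouse 3 as the only control, its spread taken from the other mice, gave 2447 (1405 lower) with 1414 in the direction of Atg7-KO, and cont. mouse 1 as the only control gave 4912 (2395 higher, 2517 lower; 1568, 497 and 2847). Under these, 4 named genes without a call above were called with the other sign: Adgre1 at 0.84 with cont. mouse 3, and Fosb at 5.55, Itga2b at 1.77 and Cela1 at -0.69 with cont. mouse 1. The cause was not tested.

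A replicate block on the mouse number gave 988 genes (517 higher, 471 lower; 321, 118 and 549 by class), and with the length and GC offset 955 (517 higher, 438 lower; 115 against Atg7-KO, 509 not called in it). A term for the mice numbered 1, those with a low Xist and the highest Y-linked level in each genotype, gave 1685 genes (938 higher, 747 lower). The main fit had no such term. Beyond this split by Xist, the numbers are not shown to pair the mice. Deviations from the genotype means correlated on average at 0.223 for number 1, -0.0303 for number 2 and 0.247 for number 3. Of 9 mice, 6 correlated best with their own number. Over 25 alternatives, the 134 called named genes kept direction and call in 2525 of 3298 values, kept direction without a call in 773 and changed sign in 0. These genes were taken for their calls in the same data, which the alternatives reuse. The lack of sign changes is therefore not independent support. For the 63 named genes without a call, 92 values under an alternative were called.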
